A study of Mus musculus with 96 samples.

Results

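Antimycin, an inhibitor of respiratory complex III, was compared with the solvent DMSO in untransduced C2C12 myotubes. C2C12 is a mouse myoblast line that stops dividing and fuses into multinucleated myotubes when serum is lowered. The comparison took the 3 libraries whose labels give myotubes, antimycin and no transgene and the 3 with DMSO in its place, 6 of the 96 samples in the series. All 6 came from cells without a lentiviral transgene that were grown to confluence and then kept for 4 days in medium with low, dialyzed horse serum. Treatment lasted 10 h, with antimycin at 0.5 µM or with DMSO alone, in medium holding glucose and glutamine and lacking pyruvate and uridine. RNA of each well was made into full-length cDNA libraries and sequenced. Myotubes from the same preparation scheme treated for 10 h with the complex I inhibitor piericidin (0.5 µM) or the ATP synthase inhibitor oligomycin (1 µM), 3 libraries each, were used to find where antimycin differed from other blocks of respiration. Levels are also given for untransduced myotubes with the uncoupler BAM15 (0.5 µM) for 10 h, and with DMSO at 5% oxygen, where the cells had been placed the evening before and stayed during treatment, 3 libraries each. Proliferating C2C12 myoblasts given antimycin or DMSO, 3 libraries each, showed where the response differed between states of the same line. Those myoblasts carried a luciferase gene under a doxycycline-inducible promoter, were given doxycycline at 300 ng/ml, and grew in dialyzed fetal bovine serum. The statistical fits also held untransduced myotubes with oligomycin plus BAM15, oligomycin plus piericidin, or oligomycin at 5% oxygen. They further held luciferase myoblasts with piericidin or oligomycin for 10 h.

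Complex III takes electrons from ubiquinol and hands them to cytochrome c, and antimycin binds the site where ubiquinone is reduced. With the site blocked, NADH and ubiquinol are no longer oxidized by the chain, oxygen is no longer consumed at complex IV, and less proton-motive force is made. Mitochondrial faults of this kind are known to engage the integrated stress response (ISR), in which phosphorylation of eIF2α slows general translation while the transcription factor ATF4 is made and turns on genes for amino acid synthesis, amino acid uptake and tRNA charging. Oxygen that mitochondria do not use is also known to remain available to the prolyl hydroxylases that mark the hypoxia-inducible factor HIF for destruction. HIF drives genes for glycolysis, lactate export and survival at low oxygen.

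The 6 libraries held 8985539 to 13759512 counts. One gene, CT010467.1, took 26.7 to 29.6% of the counts of each, and transcripts of the mitochondrial genome took 2.84 to 3.07%. No count fell on any of the transgenes in the myotube libraries. The labels hold a plate code that they do not explain. Read as a position on a 96-well plate, it put antimycin replicate 1 in the outer ring and the other 5 inside. No pair of libraries was identical. The labels do not say whether replicates were separate cultures, so the p-values measure the spread between these samples only, which may be technical. In the bulk RNA of a well, fewer cells of a type and less RNA per cell cannot be told apart. All 12 myotube markers were measured, and in the test given below 4 passed as higher with antimycin and 5 as lower. One of the 12, the myosin heavy chain gene Myh1, stood at 16883, 18484 and 19662 normalized counts with DMSO and 15302, 14849 and 14554 with antimycin. The reserve cell marker Pax7, a gene of undifferentiated muscle precursors, stood at 45.1, 63.3 and 50.2 with DMSO and 59.7, 39.6 and 46.7 with antimycin.

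Antimycin changed 1613 of 12491 genes tested, or 12.9%, at an adjusted p under 0.05 by edgeR's quasi-likelihood F test. Of these, 830 (6.64% of those tested) were higher with antimycin and 783 (6.27%) were lower. Which side had more calls depended on processing, with 587 higher and 800 lower where no filter on low counts was used, 635 and 812 where these 2 groups alone were modelled, and 539 and 614 without antimycin replicate 1. Most changes were small. The fold change reached 2 for 131 genes, 56 higher and 75 lower, and the median absolute log2 fold change over all genes tested was 0.17, around a median of 0.01. The 3 antimycin libraries lay wholly above or wholly below the 3 DMSO libraries for 3850 genes (30.8%), of which 1570 were called. Both the call and this separation come from the same 6 libraries, so neither adds support to the other. Throughout, levels are normalized counts in the order of replicates 1 to 3, which is no ranking, and log2 fold changes are antimycin over DMSO unless another pair is named. Genes named for their size of change were taken only where the 2 groups did not overlap, so their separation was fixed by that choice. For counts of list members against DMSO, the 6.64% and 6.27% above are the shares over all genes. The strip plot of list members shows each gene list against the median of all genes.

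**Figure D1:**
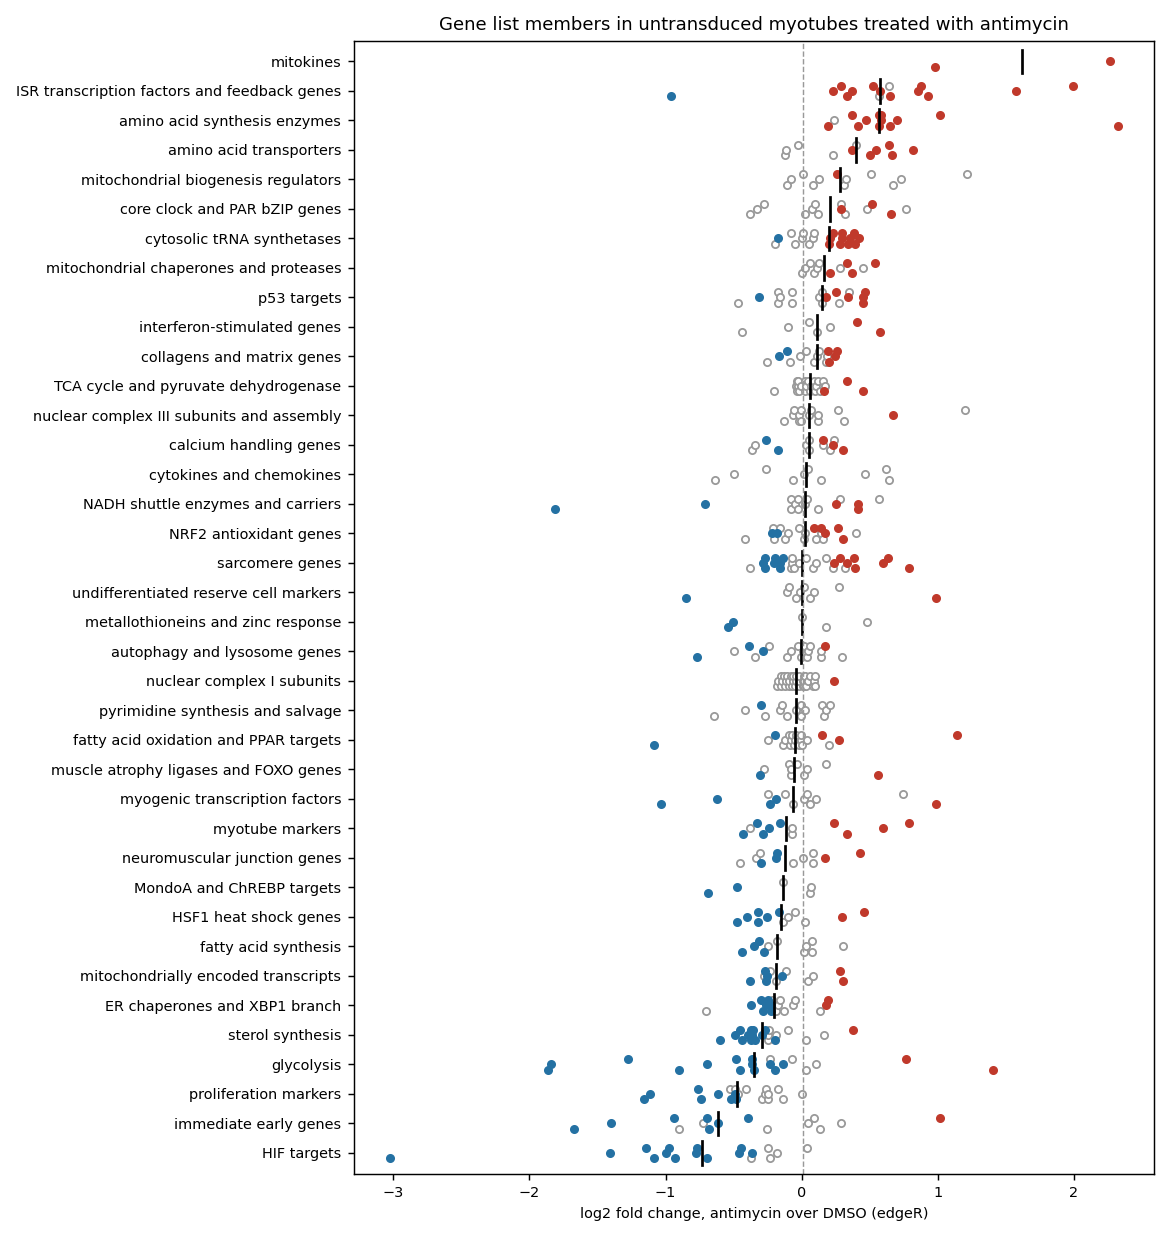
Log2 fold change of antimycin over DMSO (horizontal axis) for each tested member of the gene lists (rows). Red points passed the test as higher, blue points passed as lower, open points did not pass, the bar marks the list median and the dashed line the median of all 12491 genes tested. The HIF targets and glycolysis lists lie mostly to the left, and the ISR and amino acid synthesis lists mostly to the right.

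Targets of HIF had the lowest median of the 38 gene lists. Of the 18 tested, 13 fell and 0 rose, with a median log2 fold change of -0.73 against 0.01 for all genes tested. Ankrd37, a small ankyrin-repeat gene strongly induced by low oxygen, stood at 76.3, 97.3 and 119 with DMSO and at 9.35, 15.4 and 10.2 with antimycin. The fitted difference was 8.13-fold (log2 fold change -3.02, SE 0.25, adjusted p = 4.83e-09). The gene lies on chromosome 8, 45996902 to 46005707, minus strand (GRCm38). Its levels with piericidin (5.02, 11.7 and 17.4) and oligomycin (12.7, 22.3 and 18.9) overlapped those of the antimycin libraries, with 1 piericidin library lower and others higher. Ak4, a mitochondrial matrix adenylate kinase that HIF is known to induce, stood at 89.2, 125 and 155 with DMSO and 25.2, 27.9 and 10.2 with antimycin (log2 fold change -2.45, SE 0.27, adjusted p = 5.43e-07).

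Prolyl hydroxylases were among the members that fell. Egln3, which encodes the HIF prolyl hydroxylase PHD3 and is itself a HIF target, went from 1043, 1209 and 1279.9 to 547, 576 and 529 (log2 fold change -1.08, SE 0.07, adjusted p = 5.55e-11). P4ha1, the catalytic subunit of collagen prolyl 4-hydroxylase, went from 3315, 3694 and 4309 to 1731, 1644 and 1706 (log2 fold change -1.14, SE 0.062, adjusted p = 3.84e-12). In both genes the groups were well apart and the antimycin libraries lay close together. Fam162a, Bnip3 and Pdk1, a mitochondrial protein of cell death, a mitophagy receptor and a kinase that inhibits pyruvate dehydrogenase, fell by 1.00, 0.97 and 0.93 on the log2 scale. The members that did not pass were Vegfa (-0.18), Car9 (0.041), Egln1 (-0.23), Ero1l (-0.25) and Mxi1 (-0.37). Vegfa, the angiogenic growth factor, stood at 55.9, 45.3 and 51.2 with DMSO and 35.3, 57.3 and 39.8 with antimycin, so that its groups overlapped.

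Myotubes kept at 5% oxygen with DMSO, and myotubes treated with the uncoupler BAM15 at 0.5 µM in room air, give a scale for these levels. Ankrd37 averaged 486 ± 45.1 (SD, n = 3) at 5% oxygen and 323 ± 41.7 with BAM15, both above the DMSO mean of 97.6 ± 21.4 and the antimycin mean of 11.7 ± 3.27. Pfkl, the liver form of phosphofructokinase, averaged 4426 ± 154 at 5% oxygen, 3679 ± 101 with BAM15, 1509 ± 229 with DMSO and 411 ± 23.1 with antimycin. Egln3 averaged 4937 ± 126, 3337 ± 212, 1177 ± 122 and 551 ± 23.8 in the same order. For each of these genes, antimycin and 5% oxygen or BAM15 lay on opposite sides of DMSO in all libraries. These differences were not tested here, and the time at 5% oxygen was longer than the 10 h of the inhibitors.

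**Figure D2:**
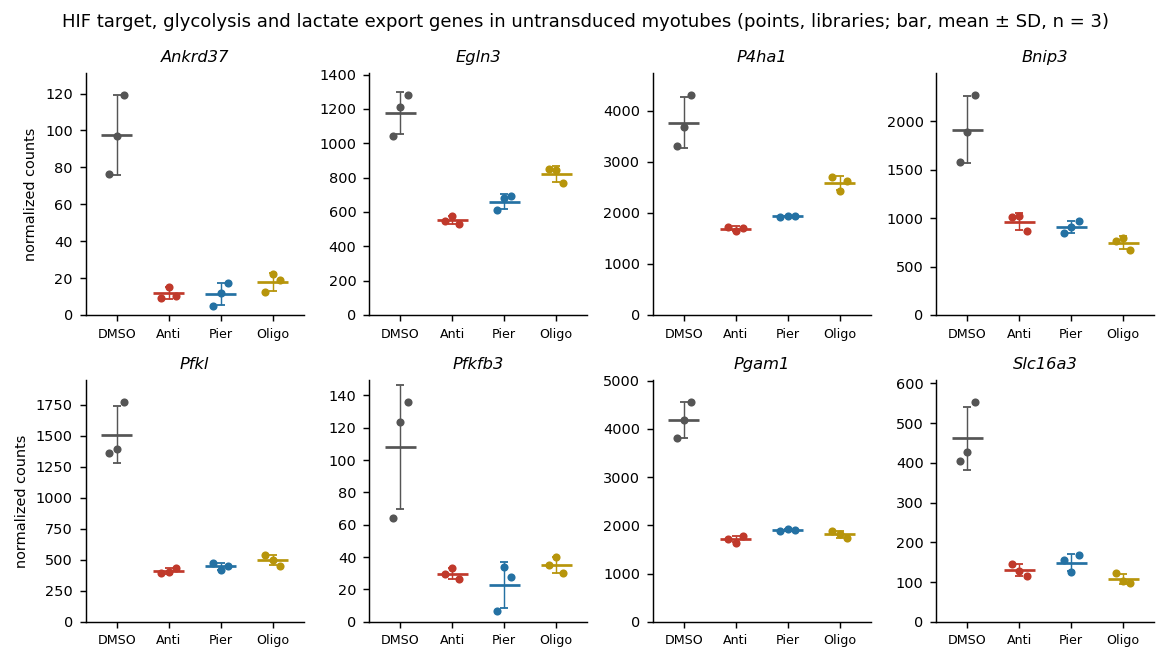
Normalized counts (vertical axis, from 0) of 8 genes of the HIF and glycolysis lists in single libraries (points) of myotubes with DMSO, antimycin, piericidin or oligomycin, with the mean ± SD of 3 as a bar. For Ankrd37, Pfkl and Slc16a3 the libraries of all 3 inhibitors lie below those of DMSO.

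Genes of glycolysis fell at many steps of the pathway while hexokinase 2 rose. Of 19 tested, 13 fell and 2 rose, with a median log2 fold change of -0.35. Pfkl fell from 1362, 1393 and 1773 to 393, 403 and 437 (log2 fold change -1.87, SE 0.079, adjusted p = 4.02e-14). Pfkfb3, which makes the phosphofructokinase activator fructose 2,6-bisphosphate, fell from 64.4, 124 and 136 to 29.5, 33 and 26.2 (log2 fold change -1.84, SE 0.25, adjusted p = 8.02e-06). Both genes were chosen from those whose groups did not overlap, so the separation of their libraries adds no support. Pgam1, the non-muscle phosphoglycerate mutase, fell from 3817, 4186 and 4558 to 1719, 1643 and 1775 (log2 fold change -1.28, SE 0.051, adjusted p = 1.78e-14). Eno1 and Tpi1, the ubiquitous enolase and triose phosphate isomerase, fell by 0.70 and 0.48 on the log2 scale. Processed pseudogenes resemble Pgam1 and Eno1 closely, so part of their estimated counts may be shared with those copies. The muscle isoforms moved little, with Pfkm at 0.11 and Pgam2 at 0.035, neither passing the test, and Eno3 at -0.14, adjusted p = 0.000988.

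The members that rose stand at the entry of glucose. Hk2, the hexokinase found in muscle, rose from 519, 510.0 and 607 to 972, 904 and 875 (log2 fold change 0.76, SE 0.091, adjusted p = 1.44e-06). Slc2a4, the insulin-sensitive glucose transporter GLUT4, rose from 20.4, 18.9 and 23.6 to 58.3, 49.9 and 58 (log2 fold change 1.41, SE 0.19, adjusted p = 7.99e-06), while Slc2a1, the general transporter GLUT1, fell by 0.45 on the log2 scale. Hk1 did not pass the test (-0.075).

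Most genes of the NADH shuttle list did not pass. In the list of 15 NADH shuttle enzymes and carriers, 2 fell and 3 rose, around a median of 0.022, and the members that fell were Slc16a3 and Ldha. Slc16a3, the lactate exporter MCT4, went from 405, 428 and 553 to 145, 128 and 115 (log2 fold change -1.81, SE 0.11, adjusted p = 3.4e-11). Ldha, the lactate dehydrogenase subunit that favours lactate formation, went from 11492, 12237 and 13204 to 7544, 7505 and 7324 (log2 fold change -0.71, SE 0.042, adjusted p = 1.04e-11). The ranges of Ldha were fully separate, while for Slc16a3 the choice of the gene required this. Got1, the cytosolic aspartate aminotransferase of the malate-aspartate shuttle, and Slc25a12, its aspartate-glutamate carrier, rose by 0.42 and 0.25, the latter not passing where no filter on low counts was used. Gpd2, the mitochondrial glycerol 3-phosphate dehydrogenase, was at 0.41, and its call was lost without antimycin replicate 1 (0.38, adjusted p = 0.0777) or without DMSO replicate 1 or 3. Nmrk2, a nicotinamide riboside kinase of muscle that feeds NAD synthesis, rose from 134, 94.4 and 110.3 to 406, 428 and 463 (log2 fold change 1.95, SE 0.13, adjusted p = 1.72e-10). It lies on the opposite strand within the antisense gene Atcayos, and since the libraries did not keep strand, reads where the genes overlap could belong to either.

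Promoters of the genes with the largest changes are shown here because HIF and ISR factors act through short DNA elements. Of the 20 genes named for their size of change, 18 had an entry in the RefSeq promoter table (GRCm38.p6), and the 250 bases before each start were searched on both strands for ACGTG and GCGTG, cores of the hypoxia response element, CACGTG, the E-box, which contains ACGTG, TGATGNAA, the core of the CEBP-ATF response element, and TGACNNNGC, the core of the antioxidant response element. ACGTG was in at least 1 promoter of 5 of the 9 genes that fell and 5 of the 9 that rose, and in 16.6% of the 32851 promoters of the table. GCGTG was found for 4 of 9 and 4 of 9, against 28.2% of promoters. CACGTG was found for 2 genes that fell and 4 that rose, against 6.02% of promoters. TGATGNAA was found for 1 gene that rose, Atf3, against 3.45%, and TGACNNNGC for 2 that rose, against 10.2%. Genes with several promoters had more chances of a match, and a match describes letters, not a used site. The promoter sequences of Ankrd37 (chr8:45999851-46000100, minus strand), Slc16a3 (chr11:120948817-120949066, plus strand) and Atf3 (chr1:191183334-191183583, minus strand), each 5′ to 3′ with the motifs found in capitals, are printed to show 2 genes that fell and 1 that rose. Annotated exons overlap 17, 14 and 7 bases of these windows, respectively. Ankrd37 holds ACGTG beginning 241 and 6 bases before its start, and Slc16a3 holds it 27 and 14 bases before. Atf3 holds TGATGNAA, on the opposite strand, 110 bases before. GCGTG, on either strand, begins 155 and 152 bases before the start of Ankrd37 and 247 and 155 before that of Atf3. None of the motifs was found for Gja5, Lrrc26 and Asprv1, which fell, or for Cdsn, which rose.
Ankrd37: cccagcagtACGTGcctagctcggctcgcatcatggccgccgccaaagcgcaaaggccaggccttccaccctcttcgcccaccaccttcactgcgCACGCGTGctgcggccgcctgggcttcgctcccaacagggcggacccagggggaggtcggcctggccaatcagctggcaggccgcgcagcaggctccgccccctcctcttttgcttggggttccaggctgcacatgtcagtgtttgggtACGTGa
Slc16a3: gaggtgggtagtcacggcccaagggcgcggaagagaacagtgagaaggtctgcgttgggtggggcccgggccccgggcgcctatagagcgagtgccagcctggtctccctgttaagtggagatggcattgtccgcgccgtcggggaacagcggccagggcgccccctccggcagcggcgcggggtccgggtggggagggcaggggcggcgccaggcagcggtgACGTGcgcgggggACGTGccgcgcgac
Atf3: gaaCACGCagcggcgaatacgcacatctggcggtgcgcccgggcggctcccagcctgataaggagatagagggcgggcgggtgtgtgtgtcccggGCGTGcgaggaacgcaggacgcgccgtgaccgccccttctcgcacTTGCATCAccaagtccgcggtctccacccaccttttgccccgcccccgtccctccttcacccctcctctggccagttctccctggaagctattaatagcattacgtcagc

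Most transcription factors and feedback genes of the integrated stress response rose, by amounts that differed widely between members. Of 15 ISR transcription factors and feedback genes tested, 12 rose and 1 fell, with a median log2 fold change of 0.57. Atf4 itself, the factor at the head of the pathway, rose by a small amount, from 2083, 2106 and 2134 to 2542, 2570.5 and 2535 (log2 fold change 0.29, SE 0.046, adjusted p = 9.02e-05), though every antimycin library was above every DMSO library. Atf3, a stress factor induced downstream of ATF4, rose from 36.5, 43.4 and 34.5 to 122, 110.1 and 106 (log2 fold change 1.57, SE 0.18, adjusted p = 7.63e-07). It lies on chromosome 1, 191170296 to 191218039, minus strand. Ddit3, which encodes the factor CHOP, rose from 211, 181 and 204 to 350.4, 381 and 390.3 (log2 fold change 0.93, SE 0.083, adjusted p = 1.62e-08). The ranges of Ddit3 were separate, while for Atf3 the choice of the gene required this.

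The largest change in the list belonged to Trib3, a pseudokinase that feeds back on ATF4 and CHOP, on chromosome 2, 152337422 to 152344032, minus strand. It rose from 96.7, 114 and 131 to 469, 479 and 398 (log2 fold change 1.99, SE 0.093, adjusted p = 1.8e-13). Chac1, a glutathione-degrading enzyme, rose by 0.88, Sesn2, a stress-induced inhibitor of mTORC1, by 0.86, and Vldlr, a lipoprotein receptor, by 0.65. Ppp1r15a, the GADD34 subunit that removes the phosphate from eIF2α, rose by 0.33 (adjusted p = 0.00364). Ddit4, an mTORC1 inhibitor that is induced both by ATF4 and by HIF, fell from 59.1, 59.5 and 66 to 28.1, 32.3 and 34.1 (log2 fold change -0.96, SE 0.25, adjusted p = 0.0106), a call lost without antimycin replicate 1. Atf5 and Stc2 did not pass the test, at 0.57 and 0.64.

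Both secreted mitokines of the list rose. Gdf15, a circulating signal of mitochondrial disease on chromosome 8, 70629393 to 70632456, minus strand, rose from 19.3, 17 and 22.6 to 83.5, 99.8 and 99 (log2 fold change 2.26, SE 0.21, adjusted p = 2.88e-08), a fitted 4.8-fold difference. Fgf21, a metabolic hormone made by stressed muscle, rose from 308, 317 and 273 to 585, 610.0 and 554 (log2 fold change 0.98, SE 0.085, adjusted p = 1.03e-08). No antimycin library of Fgf21 came near the DMSO libraries, while Gdf15 was chosen from genes whose groups did not overlap.

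**Figure D3:**
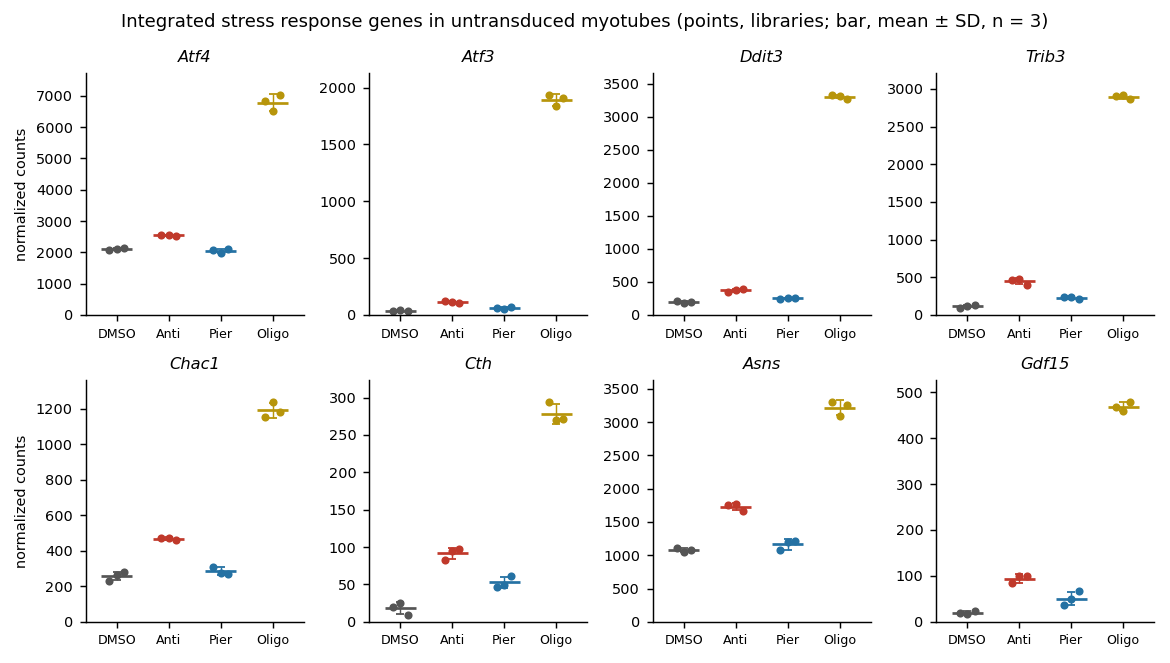
Normalized counts (vertical axis, from 0) of 8 genes of the ISR, mitokine and amino acid synthesis lists in single libraries (points) of myotubes with DMSO, antimycin, piericidin or oligomycin, with the mean ± SD of 3 as a bar. In Trib3, Atf3 and Gdf15 the antimycin libraries lie above those of DMSO and piericidin and far below those of oligomycin.

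Enzymes of amino acid synthesis rose nearly as a group, with 12 of 13 higher, 0 lower and a median of 0.57. Cth, cystathionine gamma-lyase, which makes cysteine from cystathionine, showed the largest rise of any gene the naming rule selected. It stood at 20.4, 25.5 and 8.86 with DMSO and 82.7, 94.7 and 96.7 with antimycin, a fitted 5.01-fold difference (log2 fold change 2.32, SE 0.24, adjusted p = 1.45e-07), and lies on chromosome 3, 157894248 to 157925077, minus strand. Asns, asparagine synthetase, rose from 1113, 1048 and 1072 to 1749.6, 1776 and 1668 (log2 fold change 0.70, SE 0.056, adjusted p = 2.77e-09). In the serine pathway Phgdh and Psph rose by 0.57 and 0.65, and Psat1 by 0.20, a call lost without DMSO replicate 3. The mitochondrial folate enzymes Aldh1l2, Shmt2 and Mthfd2 rose by 1.02, 0.57 and 0.58, and Mthfd1l did not pass the test (0.24).

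Amino acid transporters and tRNA synthetases rose in part. Among transporters 6 of 11 rose and 0 fell (median 0.40). Slc6a9, a glycine transporter, and Slc3a2, the shared heavy chain of several exchangers, rose by 0.82 and 0.67. Its partner Slc7a5 was at 0.64 and lost the call without antimycin replicate 2 (0.58, adjusted p = 0.0531) or DMSO replicate 3. Of 20 cytosolic tRNA synthetases 11 rose and 1 fell (median 0.20). Wars, Eprs and Gars, which charge tryptophan, glutamate with proline, and glycine, rose by 0.42 ± 0.053, 0.39 ± 0.045 and 0.39 ± 0.048 (SE). Farsa, one subunit of the phenylalanine enzyme, was the member that fell (-0.17), a call lost without antimycin replicate 2 or DMSO replicate 1.

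Chaperone genes were grouped by compartment. Mitochondrial chaperones and proteases counted 4 of 12 tested members higher and 0 lower, around a median of 0.17, led by the HSP40 protein Dnaja3 (0.54 ± 0.064, SE) and the mitochondrial HSP70 Hspa9 (0.37 ± 0.04). Chaperones of the endoplasmic reticulum counted 2 of 18 tested members higher and 7 lower (median -0.20), and the number higher was 1 without antimycin replicate 1 or 2 or DMSO replicate 2 or 3, and 0 with no filter on low counts. Hyou1, Calr and Hsp90b1 fell by 0.38, 0.30 and 0.28 on the log2 scale, and Hspa5, the HSP70 of this compartment, by 0.24. Cytosolic heat shock genes under HSF1 counted 2 of 12 tested members higher and 6 lower (median -0.15). Dnajb1 and Hspa8 fell by 0.48 and 0.40, whereas the small heat shock proteins of muscle Hspb7 and Hspb1 rose by 0.46 and 0.29.

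Calls in the lists of the inhibited machinery stand beside the 6.64% of all genes called higher and 6.27% called lower. Among 15 nuclear genes of complex III and its assembly 1 rose and 0 fell, and the median was 0.057. Uqcrc1 and Uqcrfs1, a core subunit and the Rieske iron-sulfur protein, were at -0.018 ± 0.039 and 0.12 ± 0.044 (SE). The largest value belonged to the assembly factor Lyrm7, at a low level, and did not pass (1.20, adjusted p = 0.0999). The member called was the assembly factor Ttc19 (0.67), and leaving out antimycin replicate 1 or 2 or DMSO replicate 1 or 2 ended its call (without DMSO replicate 1, 0.46, adjusted p = 0.198). The number of complex III genes higher was 0 without antimycin replicate 1 or 2 and 2 without DMSO replicate 3. Of 35 complex I subunits 1 rose, Ndufs7 at 0.24, and 0 fell (median -0.041). The tricarboxylic acid cycle list had 3 of 25 tested members higher and 0 lower (median 0.063), with 1 higher without antimycin replicate 1 or DMSO replicate 3, led by Pdk2, a kinase of pyruvate dehydrogenase (0.45 ± 0.08). Of 12 biogenesis regulators Tfam alone passed, at 0.26, a call that was lost without antimycin replicate 1 or 2 or DMSO replicate 2 or 3, and without DMSO replicate 1 the number of regulators higher was 2.

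Transcripts of the mitochondrial genome moved both ways. The list had 2 of 13 tested members higher and 5 lower, around a median of -0.19, and without DMSO replicate 2 the number lower was 3. The cytochrome oxidase transcripts mt-Co1 and mt-Co2 rose by 0.28 ± 0.052 and 0.30 ± 0.037 (SE), while mt-Nd5 and mt-Atp8 fell by 0.27 and 0.38 on the log2 scale. Cytochrome b, the complex III subunit that antimycin binds, was at -0.14, adjusted p = 0.0175. Pyrimidine synthesis, which needs the chain through dihydroorotate dehydrogenase, showed 0 of 15 genes higher and 1 lower (median -0.044). Over all genes tested, 6.64% were called higher and 6.27% lower, which stands beside each list count of this paragraph. Dhodh stood at 80.6, 122 and 123 with DMSO and 126, 115 and 125 with antimycin, which did not pass the test (log2 fold change 0.18, SE 0.17, adjusted p = 0.557). Fatty acid oxidation genes and PPAR targets had 3 of 21 tested members higher and 2 lower (median -0.048), and the largest fall among them was that of Angptl4, an inhibitor of lipoprotein lipase induced by PPAR factors and by HIF (log2 fold change -1.08, SE 0.11, adjusted p = 1.06e-07).

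Muscle genes moved in both directions. The 28 sarcomere genes divided into 8 higher and 8 lower with a median at 0.0046, and without antimycin replicate 1 the number lower was 5. The myotube markers had 4 of 12 higher and 5 lower (median -0.12). The slow myosin Myh7 rose from 1357, 1665 and 1715 to 2908, 2711 and 2489.7 (log2 fold change 0.79, SE 0.087, adjusted p = 4.99e-07) and the fast IIB myosin Myh4 rose by 0.60 ± 0.069 (SE), whereas the IIX myosin Myh1 fell by 0.29. The fast myosin-binding protein Mybpc2 and skeletal actin Acta1 rose by 0.63 and 0.38, and desmin fell by 0.27. Myosin heavy chain genes are close in sequence and lie in a cluster, so their estimated counts may share reads.

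Of 13 myogenic transcription factors 1 rose and 4 fell (median -0.062). The counts of this paragraph stand beside the 6.64% of all genes called higher and 6.27% called lower. Myf5, a factor of undifferentiated muscle cells, rose from 99.9, 92.6 and 84.7 to 187, 169.6 and 187 (log2 fold change 0.98, SE 0.12, adjusted p = 3.01e-06). Id2 and Id1, which hold MyoD-family factors back from DNA, fell by 1.03 and 0.62 on the log2 scale. Myog, the factor of terminal differentiation, was at -0.23, adjusted p = 0.000235, and Myod1 did not pass the test (0.014). The 10 reserve cell markers had 1 higher, the same Myf5, and 1 lower, Sdc4 (median 0.003), so the list did not move as one. Neuromuscular junction genes had 2 of 12 tested members higher and 3 lower (median -0.12), and the number higher was 1 without any single library, with the acetylcholine receptor subunit Chrnd at -0.30 and the repressor Hdac4 at 0.43. Calcium handling genes had 3 of 13 tested members higher and 2 lower (median 0.057), within -0.37 to 0.30, and the number higher was 1 without antimycin replicate 1 and the number lower 1 without DMSO replicate 3. Of 10 atrophy ligases and FOXO genes 1 rose and 1 fell (median -0.054). The rise was that of Trim63, the ligase MuRF1 (0.56 ± 0.11, SE), the fall was that of Fbxo30, lost without any single library other than DMSO replicate 1, and Fbxo32, atrogin-1, did not pass (-0.077).

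Proliferation markers, genes of the cell cycle, were lower in part. Of 20 tested 8 fell and 0 rose (median -0.47), and without antimycin replicate 2 the number that fell was 5. Among those that fell were the replication helicase subunits Mcm3 and Mcm5 (-0.76 ± 0.16 and -0.74 ± 0.15, SE) and cyclin E2 (Ccne2, -1.16 ± 0.27). Mki67, the Ki-67 antigen, did not pass, at 139, 123 and 141 with DMSO and 109, 126 and 100.1 with antimycin. Summed over the list, the normalized counts ran from 5392 to 6435 with DMSO and from 4368 to 4640 with antimycin, and those of the reserve cell markers from 15860 to 16069 and from 13720 to 14884. The sum of the myotube markers ran from 98473 to 106633 and from 93812 to 96456, so that all 3 sums were lower in every antimycin library. Abundant members weigh most in such sums. By gene, the reserve cell list had 1 member higher and 1 lower, and the myotube list 4 higher and 5 lower. The part of these lower sums in the other results was not tested. Of 18 p53 targets 6 rose and 1 fell (median 0.15). Cdkn1a, the cell cycle inhibitor p21, was the one that fell (log2 fold change -0.31, SE 0.046, adjusted p = 3.84e-05). The death receptor Tnfrsf10b and Sesn1 rose by 0.47 and 0.45. Trp53inp1 was at 0.45, and without antimycin replicate 2 at 0.33 with an adjusted p of 0.0866.

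Immediate early genes, which respond to growth factors within minutes, had 1 of 15 tested members higher and 7 lower (median -0.61). Fosl1 and Ier3 fell by 1.67 and 0.94 on the log2 scale, and Fos went from 66.6, 66.1 and 60.1 to 24.5, 16.1 and 33 (log2 fold change -1.40, SE 0.26, adjusted p = 0.000483). Nr4a1, an orphan nuclear receptor induced by activity in muscle, moved the other way, from 165, 184 and 174 to 373, 332 and 344 (log2 fold change 1.01, SE 0.10, adjusted p = 1.19e-07). Of 5 tested MondoA and ChREBP targets, genes that follow glucose phosphates, 2 fell (median -0.14). They were Klf10 (-0.69) and Txnip (-0.48), a brake on glucose uptake. Txnip lost its call without antimycin replicate 3 (-0.33, adjusted p = 0.126) or without DMSO replicate 2 or 3.

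Most genes of sterol synthesis fell by small amounts. Of 21 genes 13 fell and 1 rose, with a median of -0.29. Idi1, an isomerase of isoprenoid units, went from 1410.3, 1478 and 1469.9 to 1077, 1043 and 1036 (log2 fold change -0.45, SE 0.055, adjusted p = 1.98e-06), and Hmgcs1, an early synthase, from 3301, 3219 and 3462 to 2762, 2697 and 2734 (log2 fold change -0.27, SE 0.049, adjusted p = 0.000397). The oxygen-requiring Sqle fell by 0.36 on the log2 scale. Dhcr7 was the member that rose (0.38). Fatty acid synthesis had 0 of 11 tested members higher and 4 lower (median -0.18), with 2 lower without antimycin replicate 1 or DMSO replicate 1 or 3, led by Fasn, the fatty acid synthase (-0.44 ± 0.067, SE).

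In the remaining lists many calls rested on single libraries. NRF2 antioxidant genes had 5 of 20 tested members higher and 2 lower (median 0.021), against 12.9% of all genes called. The number higher was 3 without antimycin replicate 1 or DMSO replicate 2 and 2 without antimycin or DMSO replicate 3, and the number lower was 1 without antimycin or DMSO replicate 2. Nqo1, a classic NRF2 target, stood at 63.4, 84.1 and 49.2 with DMSO and 59.7, 78.5 and 71.7 with antimycin and did not pass. The metallothionein list had 0 of 5 higher and 2 lower (median 0.002), Mt1 and Mt2, whose calls were lost without antimycin replicate 1, and without antimycin replicate 3 the number higher was 1. Autophagy and lysosome genes had 1 of 19 tested members higher and 3 lower (median -0.0047), and the regulator Tfeb fell by 0.77 on the log2 scale. Interferon-stimulated genes had 2 of 7 higher, with 0 without antimycin replicate 1 or 2 or DMSO replicate 1 and 1 without DMSO replicate 2, and the 10 tested cytokines and chemokines had 0 by edgeR and by DESeq2, and 3 at an unadjusted p under 0.05, with Cxcl12 at 0.047 and Csf1 at -0.06. Matrix genes had 4 of 15 tested members higher and 2 lower (median 0.11). The number higher was 2 without antimycin replicate 1 or 2 or DMSO replicate 1, and the number lower was 1 without antimycin or DMSO replicate 1 and 0 without any other single library. Clock genes had 3 of 14 tested members higher and 0 lower (median 0.21), with 0 higher without DMSO replicate 1 and 1 without any other single library.

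Among the genes with the largest changes, several belonged to none of the lists. Cdsn, known as an adhesion protein of skin, rose from 21.5, 35.9 and 30.5 to 123, 109 and 117 (log2 fold change 1.99, SE 0.18, adjusted p = 1.48e-08). Asb2, a substrate receptor of a ubiquitin ligase that limits muscle mass, rose from 158, 158 and 161 to 378, 357 and 371 (log2 fold change 1.22, SE 0.12, adjusted p = 8.11e-08). Fez1 and Cnksr1 rose by 1.26 and 1.25. Atcayos rose by 1.60, but it spans Nmrk2 on the opposite strand and the libraries did not keep strand, so the rises of these genes cannot be counted as separate. Gja5, the gap junction protein connexin 40, fell from 886, 824 and 880.2 to 222, 206 and 204 (log2 fold change -2.02, SE 0.089, adjusted p = 5.77e-14). Lrrc26, an auxiliary subunit of a potassium channel, fell by 1.97 on the log2 scale, Fam167a by 1.77, the protease Asprv1 by 1.75 and the taste receptor Tas1r1 by 1.67.

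Antimycin and piericidin block the chain on either side of the ubiquinone pool, and a direct test asked where the 2 groups of myotubes differed. Few genes did. Of 12491 tested, 82 (0.656%) passed, 62 higher with antimycin (0.496%) and 20 lower (0.16%), and 1276 had an unadjusted p under 0.05. The fold reached 2 for 2 genes. Of the 62 that were higher, 34 were among the 60 tested members of the 5 ISR-related lists (transcription factors and feedback, mitokines, amino acid synthesis, transporters, tRNA synthetases), and of the 20 that were lower 0 were. The count moved with single libraries, to 39 without antimycin replicate 1, 44 without antimycin replicate 2, 54 without piericidin replicate 1 and 51 without piericidin replicate 2. It was 25 where these 2 groups alone were modelled. Of the 39 and the 25, 33 and 22 were higher with antimycin, so not all 34 ISR members kept the call there. The excess of higher genes also depended on processing, with 101 higher and 190 lower where no filter on low counts was used. Both inhibitors were used at 0.5 µM, which need not mean equal inhibition.

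In part, the ISR lists were higher with antimycin than with piericidin. The transcription factor and feedback list had 9 of 15 tested members higher and 0 lower (median 0.32), amino acid synthesis 10 of 13 tested members higher and 0 lower (median 0.43), tRNA synthetases 10 of 20 tested members higher and 0 lower (median 0.26) and transporters 3 of 11 tested members higher and 0 lower (median 0.28). Trib3 stood at 242, 239 and 212 with piericidin, between its DMSO and antimycin levels (antimycin over piericidin, log2 fold change 0.98, SE 0.087, adjusted p = 7.88e-07). Ddit3 stood at 244, 262 and 252 (log2 fold change 0.57, SE 0.082, adjusted p = 0.000394) and Atf4 at 2060.4, 1986 and 2098 (log2 fold change 0.32, SE 0.046, adjusted p = 0.000325). The piericidin libraries thus lay below every antimycin library of these 3 genes, and those of Atf4 overlapped the DMSO range or lay under it. Asns, Fgf21 and Chac1 were higher with antimycin by 0.58 ± 0.056, 0.54 ± 0.084 and 0.73 ± 0.10 (SE). Atf3 (56.9, 52 and 68.8 with piericidin) differed by 0.92, adjusted p = 0.00538, and without piericidin replicate 2 by 0.82 with an adjusted p of 0.0654. Gdf15 (36.8, 48.8 and 66.1 with piericidin) differed by 0.86, adjusted p = 0.0285, a call lost without antimycin replicate 2 (0.80, adjusted p = 0.122) or 3, or without piericidin replicate 1 or 2. Sesn2 and Cdsn were higher by 0.77 and 1.28.

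**Figure D4:**
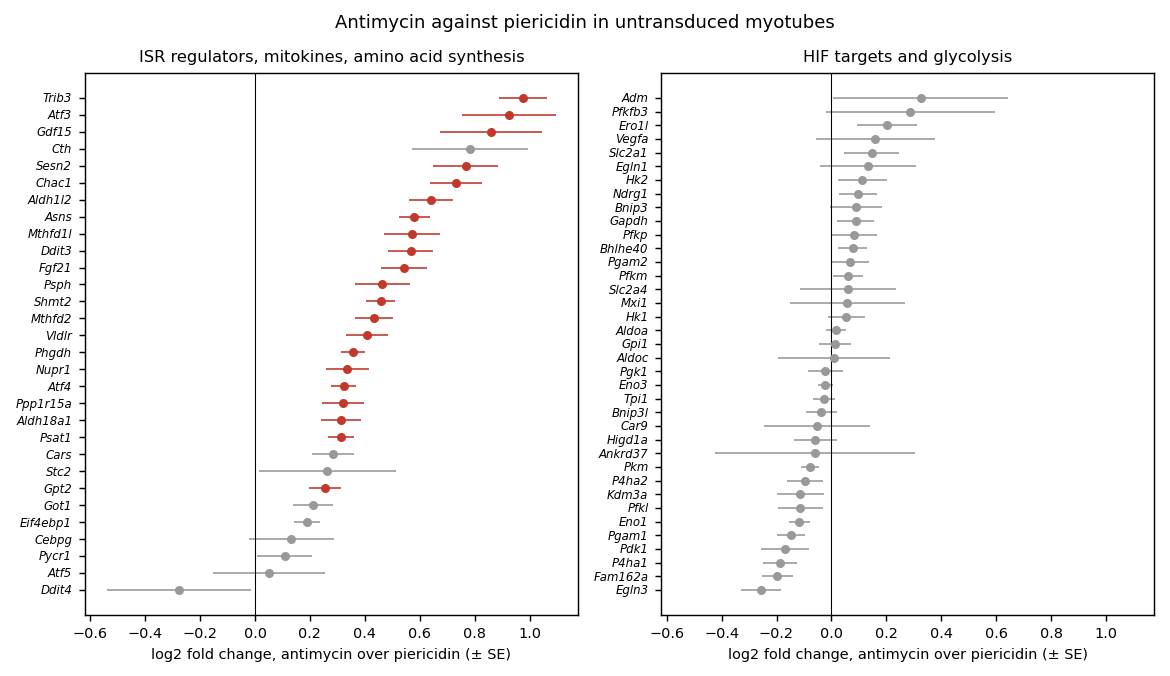
Log2 fold change of antimycin over piericidin in myotubes (horizontal axis, with SE bars) for the tested members of the ISR, mitokine and amino acid synthesis lists (left) and of the HIF and glycolysis lists (right). Red points passed the test and grey points did not. On the left 9 of 15 ISR factors and 10 of 13 synthesis enzymes passed as higher, and on the right 0 of 18 HIF targets and 0 of 19 glycolysis genes passed.

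The HIF and glycolysis lists showed no difference that passed between these inhibitors, with 0 of 18 and 0 of 19 members called by edgeR and medians of -0.045 and 0.017. At an unadjusted p under 0.05 there were 3 HIF targets and 3 glycolysis genes, and DESeq2's Wald test called 1 HIF target lower and 0 glycolysis genes. Pfkl stood at 473, 419.9 and 448 with piericidin (antimycin over piericidin -0.11 ± 0.083, SE), Egln3 at 609, 679.8 and 691 (-0.26 ± 0.072) and Ankrd37 at 5.02, 11.7 and 17.4 (-0.061 ± 0.36). Missing the threshold does not show that the levels were equal, and for Ankrd37 the standard error was large. Gja5 was lower with antimycin (-0.50, adjusted p = 0.00545), a call lost without piericidin replicate 2 (-0.38, adjusted p = 0.0702). Fkbp11 (-0.54), Cks2 (-0.42), mt-Atp8 (-0.40), Gadd45g (-0.32) and the pseudogene Pgam1-ps2 (-0.39), whose estimated counts may be shared with Pgam1, were also called lower. Each lost the call without antimycin replicate 1 or 2 and without at least 1 piericidin replicate, and all but mt-Atp8 also without antimycin replicate 3.

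Against oligomycin at 1 µM, which blocks ATP synthase and leaves the chain able to pump protons, antimycin differed at 2681 of 12491 genes (21.5%), 1213 higher (9.71%) and 1468 lower (11.8%) with antimycin. The fold reached 2 for 328. Most members of the ISR lists were lower with antimycin. Transcription factors and feedback genes had 0 of 15 tested members higher and 13 lower (median -1.27), amino acid synthesis 0 of 13 tested members higher and 13 lower (median -0.88), tRNA synthetases 0 of 20 tested members higher and 17 lower (median -0.67) and transporters 0 of 11 tested members higher and 9 lower (median -0.87). Atf3 stood at 1932, 1833 and 1908 with oligomycin (antimycin over oligomycin, log2 fold change -4.05, SE 0.14, adjusted p = 8.6e-17), Ddit3 at 3327, 3311 and 3277 (-3.13) and Trib3 at 2909, 2915 and 2867 (-2.67). Every oligomycin library of these genes was several fold above every antimycin library. Atf4 stood at 6831, 6505 and 7022 (-1.40), Gdf15 at 467, 459.9 and 479 (-2.30) and Cth at 294, 270.1 and 272 (-1.60). The antimycin, piericidin and oligomycin comparisons with DMSO share the DMSO libraries, so those fold changes are not independent of each other. By the same reading of the plate code, oligomycin replicates 1 and 2 came from outer positions, as did antimycin replicate 1.

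Outside the ISR, the genes with the largest differences were of several kinds. Sarcomere genes had 8 of 28 tested members higher and 1 lower (median 0.054), myotube markers 3 of 12 tested members higher and 1 lower (median 0.053) and myogenic transcription factors 5 of 13 tested members higher and 4 lower (median 0.088), against 21.5% of all genes called. Asb2 stood at 34.1, 25.8 and 20.9 with oligomycin, below its DMSO level, where antimycin had raised it (antimycin over oligomycin, log2 fold change 3.78, SE 0.15, adjusted p = 1.99e-15). Myog stood at 19010, 19196 and 18985 with oligomycin against 6702, 6784 and 6229 with antimycin (log2 fold change -1.52, SE 0.04, adjusted p = 5.06e-19). Fst, the myostatin antagonist follistatin, and Art1, a mono-ADP-ribosyltransferase of muscle, were higher with antimycin by 2.53 and 2.41, and Smim5, Scml4 and Lrrn1 by 3.10, 2.47 and 2.09. Ptgs2, the inducible cyclooxygenase, and Car6, a secreted carbonic anhydrase, were lower (-3.48 and -4.77), as were Sh3tc2, Avil and Rad54b (-3.83, -3.35 and -3.28). HIF targets had 3 of 18 tested members higher and 6 lower (median -0.075) and glycolysis 5 of 19 tested members higher and 4 lower (median 0.021).

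The antimycin response of the myotubes differed from that of proliferating myoblasts at 6029 of 12592 genes (47.9%) by a test of the interaction, with 3229 (25.6%) having the higher log2 fold change in myotubes and 2800 (22.2%) the lower. The states also differed in serum, doxycycline and the luciferase gene, which cannot be told apart from the state itself. As the plate code was read, all 3 DMSO myoblast libraries came from outer positions and the antimycin myoblasts from inner ones, and with the position as a covariate the count was 4667. In the myoblasts alone, 60.7% of genes were called between antimycin and DMSO. Levels in this comparison are scaled over both states and differ slightly from those given before.

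Most ISR genes moved further in myoblasts. Of 15 transcription factors and feedback genes 14 had a lower log2 fold change in myotubes and 0 a higher one (median difference -2.43). Ddit3 went from 175, 156 and 140.0 to 5621, 5892 and 5574 in myoblasts and from 209.7, 181 and 204 to 353, 381 and 388 in myotubes (difference -4.24, SE 0.093, adjusted p = 5.98e-20). Atf4 went from 2371, 2288 and 2425 to 15417, 16320 and 15367 in myoblasts and from 2074, 2103 and 2133 to 2564, 2572 and 2518 in myotubes (difference -2.43, SE 0.049, adjusted p = 1.5e-20). The myotubes began at a higher level of Ddit3 and ended far lower. Asns went from 1736, 1716 and 1700.4 to 5743, 6106 and 5733 in myoblasts and from 1108, 1047 and 1071 to 1764, 1776 and 1657 in myotubes (difference -1.06, SE 0.07, adjusted p = 3e-11). Cth differed less between the states (difference -0.69, SE 0.23, adjusted p = 0.0178). Amino acid synthesis enzymes had 12 of 13 lower in myotubes and 1 higher (median -0.83), and tRNA synthetases 17 of 20 and 1 (median -0.90). The amino acid transporters had 8 of 12 lower and 3 higher (median -0.95).

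**Figure D5:**
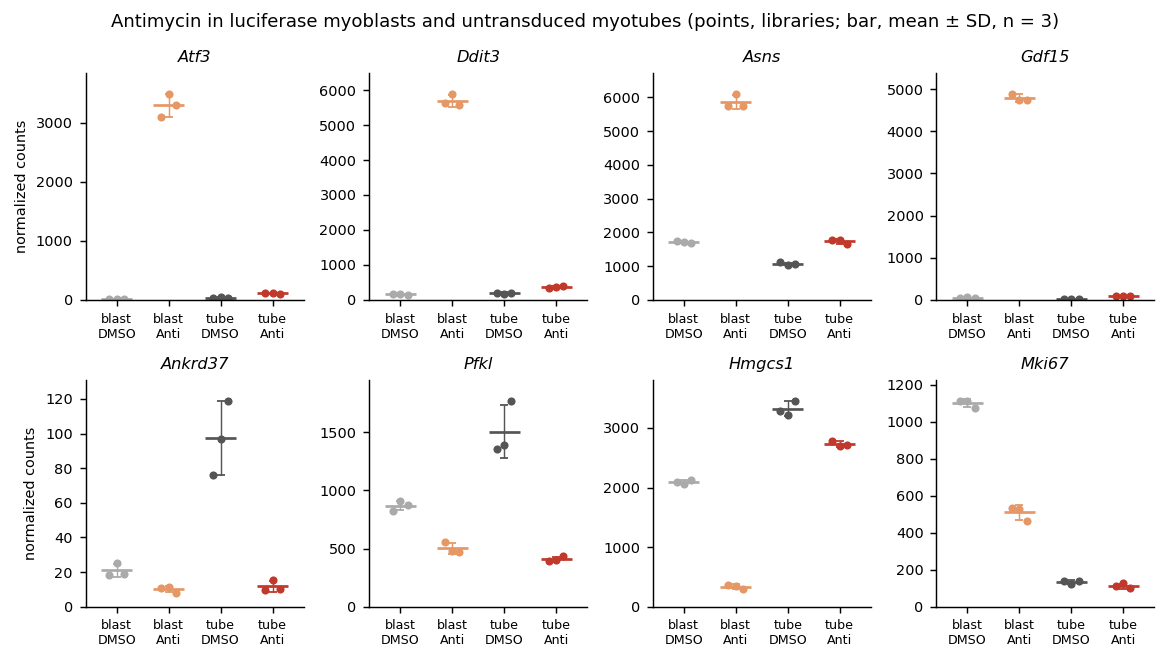
Normalized counts (vertical axis, from 0) of 8 genes in single libraries (points) of luciferase myoblasts and untransduced myotubes with DMSO or antimycin, with the mean ± SD of 3 as a bar. Atf3 and Ddit3 rise further in myoblasts than in myotubes, Pfkl and Ankrd37 are lower with antimycin in myotubes, and Hmgcs1 falls further in myoblasts.

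HIF targets did not share one direction in myoblasts, and 10 of 18 had the lower log2 fold change in myotubes, 2 the higher (median difference -0.88). Vegfa rose in myoblasts from 49.2, 37.5 and 47.6 to 267, 331 and 314 (log2 fold change 2.75, adjusted p = 9.68e-11), against 55.6, 45.3 and 51.2 and 35.5, 57.3 and 39.6 in myotubes (difference -2.93, SE 0.31, adjusted p = 6.63e-08). Ndrg1, a stress-induced gene of differentiation, rose in myoblasts by 4.83 and fell in myotubes (difference -5.59, SE 0.11, adjusted p = 9.45e-21). Egln3 went the other way, falling in myoblasts from 312, 243 and 273 to 39.4, 30.8 and 17.4, further than in myotubes (difference 2.15, SE 0.28, adjusted p = 1.53e-06). Pfkl fell in both states, by 0.81 in myoblasts, and further in myotubes (difference -1.06). P4ha1 had a myoblast log2 fold change of 0.091, adjusted p = 0.257, against its fall in myotubes (difference -1.23). Slc16a3 did not pass the interaction test (difference 0.70, SE 0.35, adjusted p = 0.11).

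Most sterol synthesis and proliferation genes fell further in myoblasts. Sterol genes had 20 of 21 with a higher log2 fold change in myotubes and 0 with a lower one (median difference 1.12). Hmgcs1, an early synthase of the pathway, went from 2098, 2056 and 2118 to 364, 352 and 292 in myoblasts and from 3287, 3214 and 3459 to 2785, 2699 and 2716 in myotubes (difference 2.38, SE 0.092, adjusted p = 2.19e-15). Proliferation markers had 17 of 20 higher and 0 lower (median 0.76). Mki67 went from 1115, 1113 and 1075 to 536, 530.0 and 463 in dividing myoblasts and from 138, 123 and 141 to 109.5, 126 and 99.5 in myotubes, where its baseline was already low (difference 0.88, SE 0.16, adjusted p = 8.12e-05). Immediate early genes had 10 of 15 lower in myotubes and 4 higher (median -2.35).

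For some of the largest interactions one group held 3 or fewer counts in all, and no fold is given. The chemokine Cxcl10 stood at 4.64, 6.37 and 4.67 and 208, 254 and 263 in myoblasts with DMSO and antimycin, and at 2.14, 1.89 and 3.94 and 0, 0 and 1.13 in myotubes. The embryonic myosin Myh3 stood at 2.79, 4.25 and 5.6 and 0, 0 and 0 in myoblasts, and at 18773, 20644 and 21197 and 19857, 18804 and 18626 in myotubes. Of genes with more counts, Gadd45a, a growth arrest gene, went from 13.9, 4.25 and 7.47 to 530.2, 473 and 581 in myoblasts against 377, 290.4 and 342 and 207, 234 and 311 in myotubes, and Ch25h, cholesterol 25-hydroxylase, from 3.72, 7.08 and 0 to 325, 349 and 250.1 against 49.2, 46.2 and 40.3 and 37, 19.1 and 33.9.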

How the data were processed

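The authors made Smart-seq2 libraries from polyA-selected RNA, which do not keep strand, pseudoaligned reads with kallisto 0.44 to the mouse transcriptome (GRCm38) with transgenes, summed transcripts to genes, and deposited estimated counts, unnormalized whole numbers. Here R 4.3.3 with edgeR 4.0.16 (limma 3.58.1) was used. A gene was tested if all replicates of some condition reached 16 counts. The test was the quasi-likelihood F test, with TMM scaling and Benjamini-Hochberg adjustment within each comparison, in a fit of 27 myotube samples of 9 conditions, or of 24 samples for the test between states. The SE is the absolute log2 fold change over the square root of F. Levels are counts divided by size factors of DESeq2 1.42.0. DESeq2's test was an alternative. Each test was first tried on simulated data.

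Members, 38 gene lists and tests were chosen with earlier results of these data known. Genes named were up to 10 per direction against DMSO and 6 per direction otherwise, taken by size of change from called genes whose mean reached 50 and whose groups did not overlap (not asked between states), then up to 4 per list and 13 genes of stress responses. Other members named were chosen after their values were seen. Same-numbered antimycin and oligomycin samples deviated together (correlations of deviations from group means 0.199, 0.187 and 0.132). For antimycin and piericidin samples of the same number the correlations were 0.0563, 0.162 and 0.0399. The main tests held no term for replicate number, which entered as a block in an alternative only. The 12 genes named against oligomycin for their size of change kept their calls under that block. Promoters came from RefSeq, positions of genes from GENCODE. Python 3.11.15 drew the plots.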

Additional observations from a re-analysis of the deposited data

Results flagged for a closer look

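The antimycin response differed between myotubes and luciferase myoblasts, by the interaction test, at 6029 genes, and among them at 16 named genes with more than 3 counts in every group. Values are the log2 fold change in myotubes minus that in myoblasts. Groups of 3 libraries were not tested for a single library far from the others.

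Stress genes had the smaller change in myotubes. The difference was -6.79 for Atf3, -4.24 for Ddit3, -3.78 for Trib3, -2.43 for Atf4, -4.38 for Ppp1r15a, -3.66 for Chac1 and -1.06 for Asns. For the secreted factors it was -6.90 for Fgf21, whose DMSO myoblasts held under 2 normalized counts each, and -4.18 for Gdf15. For Gadd45a it was -6.40, for Ch25h -6.84, for Prg4, the joint lubricant lubricin, -5.95, and for Cdkn1a -0.99. The sizes for Fgf21, Ch25h and Prg4 rest on few counts in the DMSO myoblasts, and are imprecise.

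Txnip (1.98), Gprin3 (5.11, with few counts in antimycin myoblasts) and Trp53inp1 (0.79) had the higher value in myotubes. The call of Trp53inp1 was lost with the position read from the plate code as a covariate (0.63, adjusted p = 0.166) and without 5 single libraries, among them antimycin myotube replicate 2. Plate position, serum, doxycycline and the luciferase gene differed between the compared groups, and their part was not tested beyond that covariate.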

How the results depend on the processing

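The count against DMSO was 1153 to 1626 over 12 alternatives (1153 to 1385 without a single replicate, 746 higher and 880 lower with DESeq2's size factors), and that against oligomycin 2114 to 2688 (2193 to 2459). Against piericidin, 82 became 291 with no filter on low counts (101 higher, 190 lower), 146 with DESeq2's Wald test (81 and 65), 25 with only these groups modelled, and 39 to 73 without a single replicate. The count between states was 4667 with the position read from the plate code as a covariate and 5657 to 5849 without a single replicate. The causes of these shifts were not tested.

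Of 1644 values of 137 named genes against DMSO, 1502 kept direction and call, 142 kept direction only and 0 reversed. Against piericidin, 62 of 257 lost the call and 3 reversed, all in genes that were not called. Without single replicates Dhodh ran from -0.18 to 0.073 and Cdkn1a from -0.016 to 0.11, passing -0.00051 without piericidin replicate 3.

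With a replicate block the counts were 1561 against DMSO, 69 against piericidin, 2610 against oligomycin and 6030 between states. Antimycin and DMSO samples of the same number did not deviate together (correlations of deviations 0.0438, -0.0202 and 0.0136), and not every sample correlated best with its own number. Under this block Ulk1 lost its call against DMSO, and Fkbp11, Pgam1-ps2 and Ppp1r15a lost theirs against piericidin. Depth limits genes near 16 counts, and 3 libraries per group limit differences of the size seen against piericidin.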
